A study of Mus musculus with 28 samples.

Results

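Transcripts of inflammation genes were measured in porous polymer scaffolds taken from 14 healthy mice, which are 14 of the 28 samples of the series and were chosen by the condition given in their labels. All 14 mice were female BALB/c mice that carried a microporous polycaprolactone (PCL) implant. The tissue that grows into the implant, called a synthetic niche in the labels, holds immune, stromal and epithelial cells per the labels. Scaffolds were taken at day 7 (3 mice), day 14 (8 mice) and day 21 (3 mice), counted from tumor inoculation in the time-matched tumor-bearing mice. The labels name the 4T1-luc2-tdTomato mammary tumor line for the healthy mice too, but give their condition at analysis as healthy and describe the controls as tumor-free. They were taken as such, and the 3 days were described together.

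A polymer implant draws a foreign body response. Blood proteins settle on the surface, neutrophils and then monocytes enter, and monocytes mature into macrophages that stay with fibroblasts and new vessels around the material. The cells communicate through chemokines, which guide leukocytes through tissue, and through cytokines, which act on receptors on the same or neighbouring cells. Many of these signals are made in short bursts, while their receptors are carried by cells at rest.

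Each assay is a fluorescent probe that follows 1 short stretch of a transcript through the polymerase chain reaction, and gives the quantification cycle (Cq) at which the signal crosses its threshold. Levels are given as log2 of the authors' normalized ratio. On this scale 0 is the mean of 5 reference assays, Gapdh, Tbp and Ywhaz among them, in the same sample, and each unit up is a doubling. The panel holds 648 assays for 582 genes. Errors written with ± are the SD over mice, which includes day and panel, and n is the number of mice with a value.

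Levels of different genes come from different assays, so an order of genes depends on how well each assay amplifies. The 44 genes with more than 1 usable assay gave a measure of this. Assays of the same gene differed by a median of 0.55 log2 units, or 1.47-fold, over 77 pairs. The 90th percentile was 1.25 log2 units, or 2.38-fold. The largest difference, 2.25 ± 1.14 log2 units (SD, n = 13), was between the assays of Ifng, followed by those of Tlr1, Hdac5, Alox5 and Ccr8. For these genes the level given is that of the assay with values in most mice, then with the higher mean, which was used for ordering. A smaller difference between 2 genes is therefore within what 2 assays of 1 gene can show, even where every mouse has it.

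Healthy replicates 13 and 14, both of day 14, stood apart. They lacked 173 and 113 reactions, against 61 to 81 in the other 12 mice. Of these, 89 and 32 were assays with a value in every other mouse, at ordinary levels there (medians of -3.06 and -1.82). They also held 19 of the 32 reactions that lay over 4 cycles from the median of their assay, 16 of them too high. One of these was Mapk14 in replicate 14, at a Cq of 5.09 against a mean of 19.3 in the other mice. In a different mouse, replicate 8, B2m also lay over 4 cycles from its median, at a Cq of 7.02 against 12.7. Replicates 13 and 14 were kept as labelled. Without them the mean of 7 of the 520 genes with a value in at least 7 mice moved by over 0.5 log2 units, namely Ppbp, Mapk14, Clcf1, Ptgs2, Tslp, Kit and Cebpb, and both values are given where these genes are described.

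**Figure D1:**
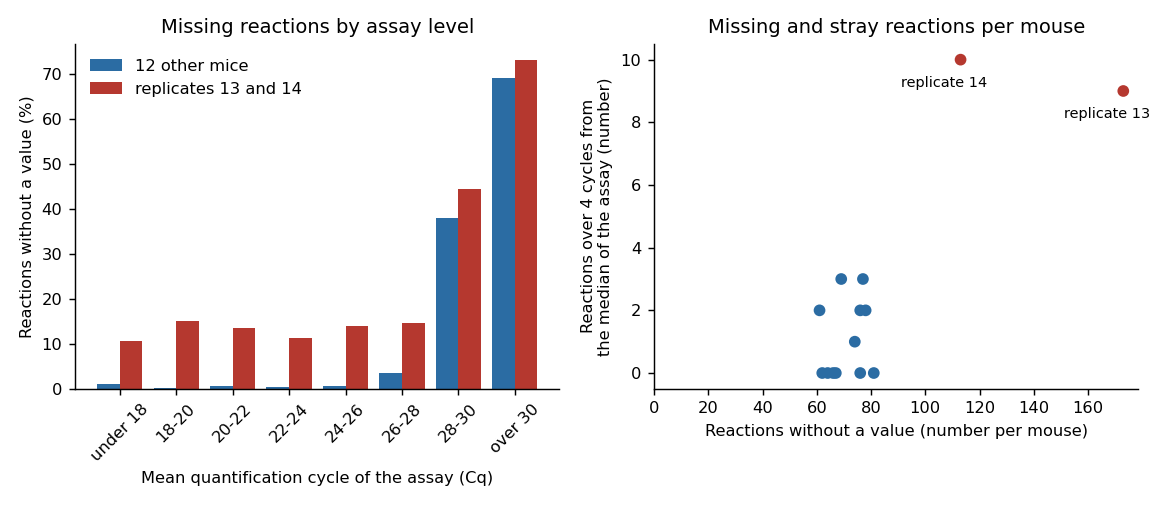
Left, percent of reactions without a value (y axis) by the mean Cq of the assay (x axis), in replicates 13 and 14 and in the other 12 mice. Right, 1 point per mouse, with the number of reactions without a value (x axis) and the number over 4 cycles from the median of the assay (y axis); replicates 13 and 14, with 173 and 113 missing reactions, lie to the upper right.

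Most of the panel was detected in the healthy implant. Of 648 assays, 376 (58.0%) gave a value in all 14 mice, 205 in 7 to 13 mice, 54 in 1 to 6 mice and 13 in none. The number with a value in every mouse was 465 without replicate 13 and 504 without both replicates. By gene, 351 of 582 had a value in all 14 mice and 520 (89.3%) in at least 7. Outside replicates 13 and 14, loss of values followed the level. In the 12 other mice at most 1.12% of reactions were missing in each range of mean Cq below 26, 37.8% were missing at a mean Cq of 28 to 30, and 68.9% above 30. A missing value is therefore described as not detected at this depth of cycles, not as absence of the transcript.

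The 13 assays with no value in any healthy mouse were those for Il17a, Il22, Il9, Il28b (Ifnl3), Ccl26, Gdf2, C8a, C8b, Apcs, Ins2, Prl7d1, Sectm1b and Slco1a4. Il17a, Il22 and Il9 encode cytokines of helper T cells and innate lymphoid cells. Il28b encodes a type III interferon. C8a and C8b encode chains of the complement membrane attack complex, and Apcs encodes serum amyloid P, all of them proteins made mainly in the liver. Ins2 encodes insulin. The number of undetected assays rose to 33 when reactions above cycle 30 were taken as missing.

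The most abundant transcripts included those of structural, matrix and myeloid genes. Among the 376 assays with a value in every mouse, Actb (beta-actin) was highest at 5.72 ± 0.40 (SD, n = 14). B2m, the light chain of class I MHC, had a median of 5.93 in 13 mice and a mean of 5.80 ± 0.36 without the reaction of replicate 8. Apoe (apolipoprotein E) was at 4.61 ± 0.47 in 13 mice. Spp1, which encodes osteopontin, a secreted matrix protein that macrophages make, followed at 4.35 ± 0.42, with 3.69 in the lowest mouse, 4.28 in the median and 5.07 in the highest. This was 20.5 times the mean of the reference assays. Anxa1 (annexin A1, a mediator of resolution) was at 4.32 ± 0.15, Fn1 (fibronectin) at 3.88 ± 0.26 and Gpx1 (glutathione peroxidase) at 3.75 ± 0.26. Fcer1g, the signalling chain of Fc receptors on myeloid cells, was at 2.98 ± 0.20, Fabp4 (a fatty acid binding protein of adipocytes and macrophages) at 2.76 ± 0.84 and Il1rn (the IL-1 receptor antagonist) at 2.75 ± 0.13. Itgb2, the beta chain of the leukocyte integrins, and Cd44, the hyaluronan receptor, were at 2.47 ± 0.22 and 2.33 ± 0.34.

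The mice ranked the genes alike. Of the 20 assays with the highest mean, 14 were among the 20 highest of every mouse and 19 among the 50 highest. The lowest rank of any of them in any mouse was 53, out of the 376 assays with a value in every mouse. These 20 were picked by their mean over the same mice, so part of this agreement is built in. Across the 91 pairs of mice, the Spearman correlation of levels over assays was 0.968 at the median, 0.905 at the lowest and 0.993 at the highest. This is a correlation over assays that share the panel, and describes the profiles only.

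Levels spanned 16.2 log2 units among the assays with a value in every mouse, with a median of -3.13 and quartiles of -5.05 and -0.76. Of the 581 assays with a value in at least 7 mice, 79 were at or above the mean of the reference assays, 313 lay between -5 and 0, 151 between -10 and -5 and 38 below -10. The lowest with a value in every mouse were an assay of Ifng at -10.47 ± 1.41, Tnfrsf19 at -10.39 ± 1.64, Il5ra at -10.31 ± 1.26, Tnfsf15 at -9.92 ± 0.81 and Csf3 at -9.88 ± 1.01. The lowest of all was Tnfrsf8, which encodes CD30, at -17.80 ± 1.86 in 10 mice. Its Cq lay between 33.7 and 39.7, and it gave 10 of the 15 reactions above cycle 33 in the healthy mice.

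**Figure D2:**
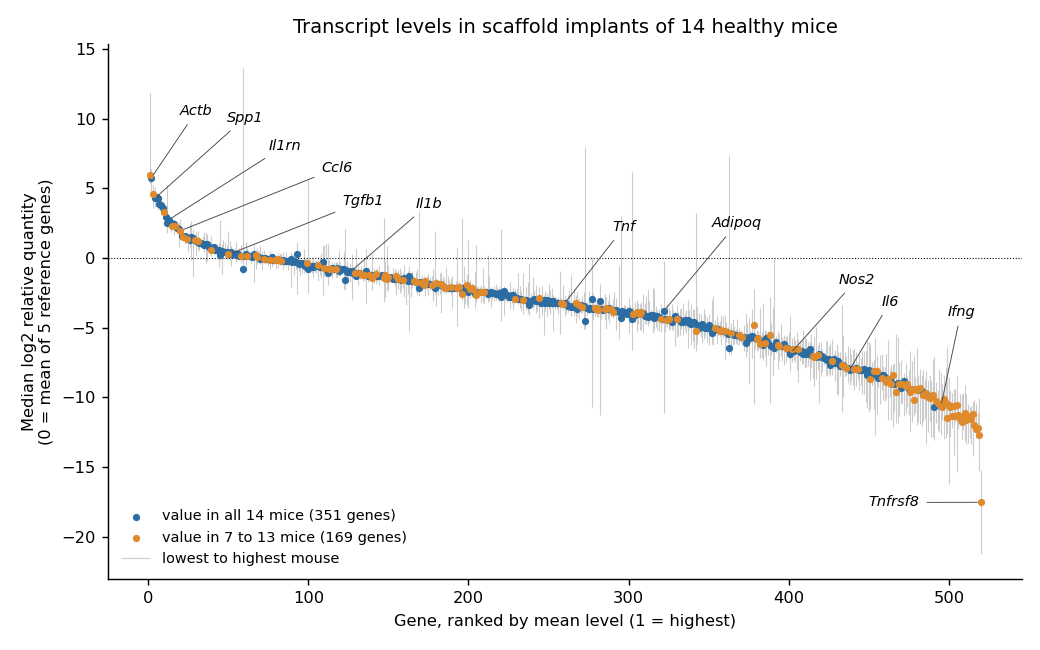
Median log2 relative quantity over healthy mice (y axis) of the 520 genes with a value in at least 7 mice, ranked by mean level (x axis), with a grey line from the lowest to the highest mouse and colour for the number of mice with a value. Among genes measured in all 14 mice, Actb, with the highest mean, has a median of 5.76 and Ifng, with the lowest mean, of -10.64, and Tnfrsf8 lies apart at -17.52.

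The order of genes within each family was examined next. In each of 30 lists, genes with a value in at least 7 mice were ordered by mean level, and each gene was compared with the next one within the same mice by an exact two-sided sign-flip permutation test. Of 324 neighbouring pairs, 173 (53.4%) differed at a Benjamini-Hochberg adjusted p under 0.05 over all pairs, and 185 at an unadjusted p under 0.05. In 139 of the 173 the difference also exceeded 0.55, and in 74 it exceeded 1.25 log2 units. The test covers the spread between mice and not the efficiency of assays. With 14 mice that all go one way, the adjusted p was 0.0010, the smallest it took. In the text below, "above" between neighbours means that the pair passed this test, and pairs that missed it are named as not separated.

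Among the marker lists of immune cells, that of monocytes and macrophages had the highest median. In bulk tissue, fewer cells of a type and less RNA per cell cannot be told apart. All 9 markers of this type that the panel holds had a value in at least 7 mice, against 89.3% of all genes. Their median level was 0.50, and 8 of the 9 lay above the median of -3.05 over all genes measured in every mouse. C3ar1, the receptor for the complement fragment C3a, was at 2.05 ± 0.41. C1qa, C1qb and C1qc, the chains of C1q, were at 1.31 ± 0.80, 0.50 ± 0.44 and 0.50 ± 0.71. Mrc1, the macrophage mannose receptor, was at 0.91 ± 0.55, Itgam (CD11b) at 0.59 ± 0.16, Cd14 at -0.06 ± 0.20 and Ccr2, a receptor of inflammatory monocytes, at -0.67 ± 0.57. Cx3cr1, the fractalkine receptor of patrolling monocytes and many resident macrophages, was the lowest at -3.48 ± 0.26. Fn1, which macrophages also express and which is the panel's single listed marker of fibroblasts and smooth muscle, lay above all of these at 3.88 ± 0.26.

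Markers of neutrophils were spread over a wide range. S100a8 and S100a9, which form calprotectin, were at -0.63 ± 1.14 and -1.20 ± 1.11, and the median of the 9 markers with a value in at least 7 mice was -4.61. Genes of granule proteins, which are transcribed during maturation in the marrow, were far lower. Ltf (lactoferrin) was at -5.87 ± 1.11, Camp (cathelicidin) at -9.62 ± 1.59 in 12 mice, Prtn3 (proteinase 3) at -10.50 ± 0.89 in 7 mice and Ela2 (Elane, neutrophil elastase) at -11.78 ± 1.29 in 10 mice. In the 12 mice with both values, S100a9 exceeded Camp by 8.37 ± 2.01 log2 units. Macrophages can also express S100a8 and S100a9, so these genes alone do not count neutrophils.

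Lymphocyte markers were low but detected. The panel holds 5 of the 15 listed T cell markers, and no chain of CD3 or CD8. These 5 had a median of -6.67 and none lay above the median of all genes. Medians of lists made of different genes do not compare numbers of cells. Cd4, which monocytes and macrophages of some species also carry, was highest at -5.09 ± 0.73. Icos and Cd28, costimulatory receptors, were at -6.48 ± 0.51 and -6.67 ± 0.48, Foxp3, the regulator of regulatory T cells, at -8.12 ± 0.55 and Ctla4, an inhibitory receptor, at -8.47 ± 1.09. For B cells the panel holds only Cr2, at -10.58 ± 1.28 in 13 mice. It holds none of the listed markers of cytotoxic and natural killer cells. Dendritic cell genes, many of which macrophages share, lay between: Cd80 was at -2.57 ± 0.28, Cd86 at -3.24 ± 0.33, Cd74 at -3.67 ± 0.61 and Xcr1, the receptor of cross-presenting dendritic cells, at -5.29 ± 0.49.

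Other cell types were marked by few genes. Among genes of mast cells, basophils and eosinophils, Kit was at a median of -4.29 over 14 mice (mean -3.79, or -4.31 ± 0.23 without replicates 13 and 14) and Ccr3, the eotaxin receptor, at -4.25 ± 0.39. Fcer1a, the binding chain of the IgE receptor, was at -9.16 ± 1.11 in 13 mice and Prg2, eosinophil major basic protein, at -9.74 ± 1.43 in 10 mice. For endothelium the panel holds Selp and Sele, P- and E-selectin. Selp was at -4.91 ± 0.48 and Sele at -7.31 ± 0.82, lower in every mouse. For epithelium, Krt8 was at -6.04 ± 2.35 in 11 mice, Muc1 at -7.17 ± 0.71 in all 14, and Krt1 gave a value in 5 mice only.

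Several adipocyte genes varied widely between mice. Adipoq, which encodes the adipocyte hormone adiponectin, ran from -11.08 through a median of -3.80 to -0.19, a far wider span than most genes. Replicate 9 was lowest and replicate 8 highest, both of day 14 and both run on the same panel. Cfd (adipsin, or complement factor D), ran from -10.65 through -2.96 to 0.03, with the same mice at its ends. Retn (resistin) ran from -10.47 to -2.22 in 13 mice and Lep (leptin) from -11.65 to -5.84 in 13 mice. Fabp4 and Pparg, the nuclear receptor of fat cell differentiation, which macrophages also express, varied less, from 1.80 to 5.27 and from -2.55 to -1.45.

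Across mice, the adipocyte genes followed one another. With Adipoq, Cfd had a Pearson r of 0.980 and a Spearman rho of 0.982 over 14 mice (permutation test, adjusted p = 3.5e-05 for each). Retn had an r of 0.961 and a rho of 0.978 over 13 mice (permutation test, adjusted p = 3.5e-05 for each), and Lep an r of 0.883 and a rho of 0.912 (permutation test, adjusted p = 0.000187 and 0.000168). Fabp4 was weaker, with an r of 0.690 and a rho of 0.679 (permutation test, adjusted p = 0.0234 and 0.0142). Pparg had an r of 0.464 and a rho of 0.489 and did not pass (permutation test, adjusted p = 0.128 and 0.119). Krt8, a keratin of simple epithelia, had an r of 0.851 and a rho of 0.827 over 11 mice (permutation test, adjusted p = 0.00136 and 0.00486), while Muc1, another epithelial gene, had an r of 0.342 and a rho of 0.385 (permutation test, adjusted p = 0.234 and 0.190). These are 7 relations, chosen after the values were seen, with p-values adjusted over them.

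The relations were recomputed on fewer mice. The 2 mice farthest from the Adipoq median were left out for each gene, taken among the mice with both values, so that they were replicates 8 and 9 for Cfd, Fabp4, Pparg and Muc1, 2 and 10 for Retn and Lep, and 2 and 9 for Krt8. Then r was 0.965 for Cfd, 0.951 for Retn, 0.868 for Lep, 0.753 for Krt8, 0.694 for Fabp4, 0.395 for Pparg and 0.036 for Muc1. In the same mice rho was 0.972 for Cfd, 0.973 for Retn, 0.927 for Lep and 0.700 for Krt8. It was lower for Fabp4, at 0.497, and was 0.373 for Pparg and 0.203 for Muc1. With each panel's mean subtracted, r was 0.987 for Cfd, 0.973 for Retn, 0.896 for Lep, 0.880 for Krt8, 0.750 for Fabp4, 0.735 for Pparg and 0.411 for Muc1. Without replicates 13 and 14, r was 0.980 for Cfd, 0.959 for Retn, 0.889 for Lep, 0.851 for Krt8, 0.688 for Fabp4, 0.450 for Pparg and 0.333 for Muc1. Over the day 14 mice alone, r was 0.854 for Muc1, 0.987 for Cfd and 0.763 for Fabp4 (n = 8 each). It was 0.988 for Retn, 0.962 for Lep and 0.595 for Pparg (n = 7 each), and 0.974 for Krt8 (n = 5). Muc1 thus followed Adipoq more closely in these mice than over all 14. The share of fat cells in each biopsy, and its part in these values, was not tested.

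**Figure D3:**
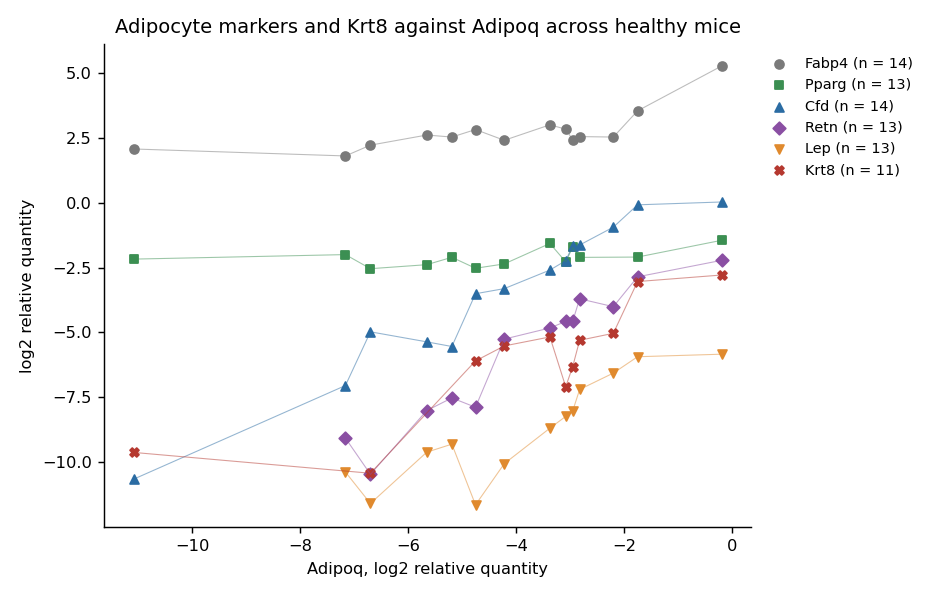
Log2 relative quantity of 5 adipocyte markers and Krt8 (y axis) against Adipoq (x axis), 1 point per healthy mouse, joined in order of Adipoq. Cfd, Retn, Lep and Krt8 climb with Adipoq, while Pparg stays between -2.55 and -1.45.

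Among the chemokines, Ccl6, Ccl8, Cxcl12 and Cxcl14 were the most abundant, and they were the chemokines with a mean above the reference assays. Of the 31 chemokines on the panel, 30 had a value in at least 7 mice, where the share over all genes was 89.3%. The median of the 30 was -3.19, and Ccl26 had no value. Ccl6, a macrophage chemokine of rodents, was highest at 2.01 ± 0.42 in 13 mice, with 1.45 in the lowest mouse, 1.96 in the median and 2.80 in the highest. Ccl8 (MCP-2) followed at 1.36 ± 0.77, and Ccl6 was above it by 0.62 ± 0.57 in 11 of 13 mice (exact sign-flip test, adjusted p = 0.00473). Ccl11 (eotaxin), at -0.78 ± 0.35, was below Ccl8 in all 14 mice.

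The monocyte chemokine Ccl2 (MCP-1) was at -1.61 ± 1.22, so that Ccl8 exceeded it by 2.97 ± 1.51 log2 units, or 7.83-fold, in 14 of 14 mice. Without replicates 13 and 14, Ccl2 was at -1.19 ± 0.42 and the difference was 2.56 log2 units, or 5.89-fold. Ccl2 reached -5.22 in its lowest mouse against a median of -1.29. Ccl7 (MCP-3) was at -1.97 ± 0.84, and Ccl3, Ccl4 and Ccl5, which attract monocytes and T cells, at -2.11 ± 0.58, -2.74 ± 0.61 and -2.81 ± 0.45. Ccl7 and Ccl3 were not separated, nor were Ccl4 and Ccl5. Ccl24, a further eotaxin, was at -3.15 ± 0.49, and Ccl22 and Ccl17, the ligands of CCR4, at -4.06 ± 0.43 and -7.04 ± 0.96. The lowest CC chemokines were Ccl19, a ligand of CCR7 in lymphoid tissue, at -8.29 ± 1.54, Ccl1 at -10.19 ± 1.02, Ccl20, the ligand of CCR6, at -10.55 ± 1.40 and Ccl28, a mucosal chemokine, at -11.26 ± 1.22.

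In the CXC family, Cxcl12, the stromal ligand of CXCR4, led at 1.39 ± 0.39, with Cxcl14, a chemokine of skin and other epithelia, at 1.13 ± 0.45. They were not separated (exact sign-flip test, adjusted p = 0.265, higher in 11 of 13 mice). Cxcl16, the ligand of CXCR6, was at -0.07 ± 0.38, below Cxcl14 in all 12 mice with both. The neutrophil chemokines Cxcl5, Cxcl2, Cxcl3 and Cxcl1 were at -0.84 ± 0.83, -1.31 ± 0.80, -3.77 ± 0.59 and -4.28 ± 0.60. Cxcl2 exceeded Cxcl1 by 2.96 ± 0.55 log2 units, or 7.80-fold, in 13 of 13 mice. Ppbp, a neutrophil chemokine of platelets, had a median of -4.49; its mean was -3.50 with, and -4.57 ± 0.46 without, replicates 13 and 14.

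The interferon-induced ligands of CXCR3 ranked Cxcl10, Cxcl9 and Cxcl11, at -2.57 ± 1.61, -3.24 ± 1.31 and -6.07 ± 1.55. Cxcl10 and Cxcl9 were not separated. They spread widely between mice, and Cxcl9 ran from -5.48 through -3.26 to -0.93. The spread of Cxcl10 included a reaction of replicate 14 at 2.12, against a median of -2.81. Without replicates 13 and 14, Cxcl10 was at -2.94 ± 0.96. Cx3cl1 (fractalkine) was at -4.47 ± 0.38, Xcl1 (lymphotactin) at -5.23 ± 0.95 and Cxcl17, a mucosal chemokine, at -10.45 ± 1.85 in 9 mice.

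All 23 chemokine receptors on the panel had a value in at least 7 mice, against 89.3% of all genes. Of the 23, 18 had a value in every mouse, and the median was -4.51. The top of the order was held by Ccrl2, an atypical receptor of myeloid cells, at -0.17 ± 0.40 and Cxcr4, the receptor of CXCL12, at -0.25 ± 0.21, which were not separated. Ccr2, which binds the products of Ccl2 and Ccl7 among others, was at -0.67 ± 0.57, Cmklr1 (the chemerin receptor of macrophages) at -1.27 ± 0.25 and Ccr1 at -2.22 ± 0.35. The neutrophil receptor genes Il8ra (Cxcr1) and Il8rb (Cxcr2) were at -2.46 ± 0.65 and -4.48 ± 0.79. Il8ra was higher than Il8rb by 2.06 ± 0.96 log2 units, or 4.16-fold, in 13 of 13 mice with both.

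In the middle of the order, Ccr3, Il8rb, Cxcr3, Ccr7, Ccr9, Darc (Ackr1), Cxcr6 and Xcr1 lay between -4.25 and -5.29, and no neighbouring pair among them was separated. The lowest were Ccr6 at -7.91 ± 0.62, Cxcr7 (Ackr3, a scavenger of CXCL12) at -8.54 ± 0.46, Ccr1l1 at -8.55 ± 0.70 in 13 mice, Ccr8 at -9.16 ± 0.79 and Ccr4 at -9.43 ± 0.98. By its other assay Ccr8 was at -10.58, lower than Ccr4. Ccr6, Ccr8 and Ccr4 encode receptors of helper and regulatory T cell subsets. Cxcr4 and Cxcr7 bind the same chemokine, and Cxcl12 exceeded Cxcr7 by 9.93 ± 0.53 log2 units in all 14 mice.

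**Figure D4:**
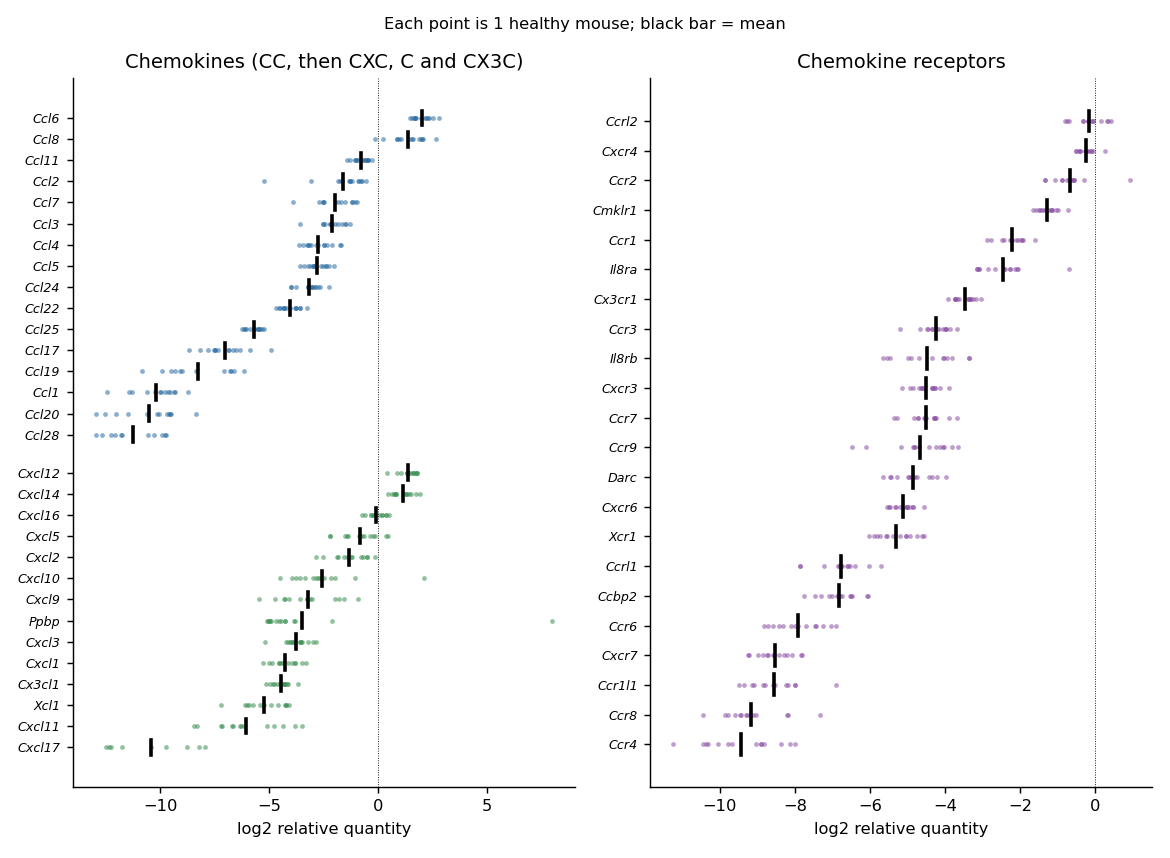
Log2 relative quantity (x axis, 0 = mean of the reference assays) of chemokines (left, CC above, CXC, C and CX3C below) and chemokine receptors (right), for most genes with a value in at least 7 mice, 1 point per healthy mouse and a black bar at the mean. Ccl6, Ccl8, Cxcl12 and Cxcl14 lie above 1 and Ccl19, Ccl1, Ccl20, Ccl28 and Cxcl17 below -8 at the mean; 1 mouse stands far to the right at 8.00 for Ppbp.

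In the IL-1 family the natural inhibitor was the most abundant member. Il1rn, which encodes the antagonist of the IL-1 receptor, was at 2.75 ± 0.13, with 2.46 in the lowest mouse, 2.76 in the median and 3.00 in the highest. Il1b, which encodes IL-1 beta, was at -1.03 ± 0.91, with -3.04, -0.90 and 0.29. By this assay of Il1b, the lowest Il1rn value lay above the highest Il1b value. By the other assay Il1b was at -1.71 ± 1.62, and its reaction in replicate 14, at 3.21, lay above every Il1rn value. With the assay used for ordering, within mice Il1rn exceeded Il1b by 3.77 ± 0.96 log2 units, or 13.7-fold, in 14 of 14 (exact sign-flip test, adjusted p = 0.0010). The SD between mice was 0.13 for the antagonist and 0.91 for the agonist by that assay.

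The other members followed at a distance. Il33, an alarmin stored in nuclei of stromal cells, was at -1.26 ± 0.31 and not separated from Il1b. Il18, processed by the inflammasome, and Il18bp, its soluble inhibitor, were at -3.61 ± 0.30 and -3.66 ± 0.55 and were not separated (exact sign-flip test, adjusted p = 0.815, higher in 9 of 13 mice). Il1f9 (Il36g) was at -4.03 ± 0.63 and Il1a at -5.01 ± 0.73. Il1b exceeded Il1a by 3.99 ± 0.67 log2 units, or 15.9-fold, in 14 of 14 mice. Il1f10, Il1f5 and Il1f6, epithelial members of the family, gave values in 8, 2 and 1 mice.

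Of the receptors, Il1r1, the signalling receptor of IL-1, was at -1.40 ± 0.24, above Il1rap, the accessory chain, at -2.81 ± 0.52, in 13 of 14 mice. Il1rl1 (ST2, the receptor of IL-33) was at -3.06 ± 0.66, Il1rl2 (the IL-36 receptor) at -3.65 ± 0.25 and Il18rap, the accessory chain for IL-18, at -6.31 ± 0.58. Nlrp3, the inflammasome sensor, was at -3.66 ± 0.68.

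Interleukins outside the IL-1 family lay low on the panel. Of 29 interleukins and related cytokines outside the IL-1 family, 18 had a value in at least 7 mice, 8 in 1 to 6 and 3 in none. None of them lay above the median of -3.05 over all genes measured in every mouse. Against the median of -3.30 over genes with a value in at least 7 mice, only Il16 lay higher, at -3.19. Of 24 receptor chains, 22 (91.7%) had a value in at least 7 mice, close to the 89.3% of all genes. The median was -7.83 for the 18 ligands and -3.31 for the 22 receptors, counted over members that passed the limit of 7 mice.

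The highest of these ligands were Il16, a chemoattractant for CD4 cells, at -3.19 ± 0.64, Il15, a growth factor of natural killer and memory T cells, at -3.68 ± 0.26, Ebi3, a chain of IL-27 and IL-35, at -3.81 ± 0.21, and Osm (oncostatin M), at -4.24 ± 0.40. Tslp, an epithelial cytokine, had a median of -5.25; its mean was -4.71 with, and -5.41 ± 0.57 without, replicates 13 and 14. Clcf1, a member of the IL-6 family, had a median of -6.47, with a mean of -5.45 and -6.45 ± 0.35. Lif (leukemia inhibitory factor), was at -6.03 ± 0.46.

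Il6, Il10 and the IL-12 family lay lower. Il6 was at -7.87 ± 0.81 and Il10, an inhibitory cytokine, at -7.92 ± 0.89, and they were not separated (exact sign-flip test, adjusted p = 0.783, higher in 7 of 13 mice). Il12b, the shared chain of IL-12 and IL-23, was at -7.00 ± 0.94, while the partner chains Il23a and Il12a were at -9.24 ± 0.97 and -9.62 ± 1.0. Il27 was at -8.80 ± 0.58. On the linear scale, Il6 was at 0.00428 and Il12a at 0.00127 of the mean of the reference assays. Another assay of Il6 was higher, at -6.80 ± 0.66 in 13 mice, and the third was at -7.98 ± 1.10.

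Several interleukins gave values in part of the mice only. Il5 gave a value in 9 mice, Il19 in 8, Il17f in 7, Il2 and Il17c in 5, Il13 in 4, Il4 in 3, and Il3, Il20, Il21 and Il24 in 1 mouse each. Where seen, the means lay between -10.05 for Il21 and -13.15 for Il24. The type 2 cytokines Il4, Il5 and Il13 were thus seen in 3, 9 and 4 of 14 mice, while the receptor chains Il4ra and Il13ra1 were near the level of the references.

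Among the receptors, Il10rb, the chain shared by the receptors of IL-10, IL-22 and type III interferons, was at 1.31 ± 0.19. Il7r followed at 0.47 ± 0.51, below Il10rb in 13 of 13 mice. Il6st (gp130), the chain shared by the IL-6 family, was at 0.07 ± 0.08, the smallest spread of any assay measured in all mice, running from -0.07 to 0.24. Il2rg, the common gamma chain, was at -0.77 ± 0.31. Il13ra1 and Il4ra, the chains of the type II IL-4 receptor, were at -1.10 ± 0.55 and -1.23 ± 0.32 and were not separated, and Lifr and Il17ra were at -1.25 ± 0.32 and -1.75 ± 0.19.

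Other chains lay lower. Il10ra was at -2.37 ± 0.17 against 1.31 for Il10rb, Il6ra at -3.00 ± 0.93 against 0.07 for Il6st, and Il15ra at -3.62 ± 0.36. Il13ra2, the decoy receptor of IL-13, was at -7.27 ± 0.81. Il12rb1, Il17rb, Il23r, Il5ra and Il31ra were between -8.55 and -10.39. Il22ra2 and Il22ra1 gave values in 4 and 3 mice, and Il22 itself in none.

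**Figure D5:**
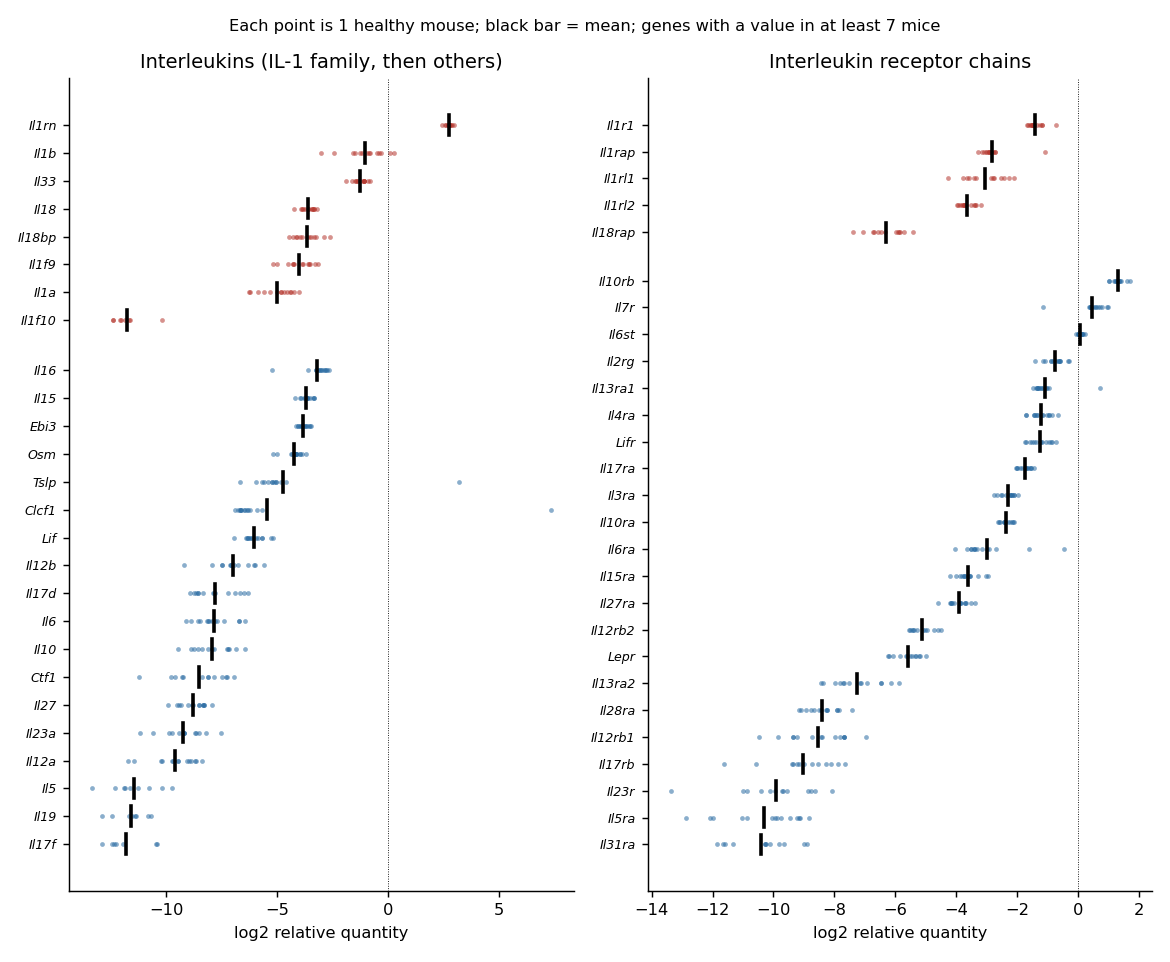
Log2 relative quantity (x axis, 0 = mean of the reference assays) of interleukins (left) and interleukin receptor chains (right), IL-1 family in red above the others in blue, 1 point per healthy mouse and a black bar at the mean. Il1rn stands apart at 2.75, the other interleukins start at -3.19, and 8 receptor chains of the lower group lie above -2.

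Among the colony-stimulating factors and their receptors, 7 of 8 neighbouring pairs were separated, where the share over all lists was 53.4%; the difference was not tested. Csf2rb and Csf2ra, the chains of the GM-CSF receptor, were at 0.94 ± 0.38 and 0.43 ± 0.31. Csf1, the growth factor of macrophages, was at -0.62 ± 0.48 and Kitl (stem cell factor) at -2.23 ± 0.28. Flt3l was at -5.53 ± 0.28. Csf2 (GM-CSF) was at -8.15 ± 1.10, and Csf1 exceeded it by 7.57 ± 1.35 log2 units, or 190-fold, in 13 of 13 mice. Csf3 (G-CSF), the growth factor of neutrophils, was at -9.88 ± 1.01 and not separated from Thpo (thrombopoietin), at -9.47 ± 1.16. Epo (erythropoietin) gave a value in 4 mice.

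The TNF superfamily was led by Tnfsf12 (TWEAK), at 0.07 ± 0.37, followed by Tnfsf13 (APRIL), at -2.01 ± 0.32; these genes are adjacent and share a readthrough transcript, and both assays name it. Tnf itself was at -3.27 ± 0.47, with -4.13, -3.25 and -2.66 as the lowest, median and highest mouse, and was not separated from Ltb (lymphotoxin beta), at -3.48 ± 0.78. Tnfsf11 (RANKL), the osteoclast factor, was at -3.68 ± 0.48, Tnfsf13b (BAFF) at -4.10 ± 0.25 and Tnfsf10 (TRAIL) at -4.48 ± 0.49. Fasl, a ligand of cytotoxic cells, was at -7.17 ± 0.47, and Cd40lg and Cd70, ligands of activated lymphocytes, were both at -10.96, in 12 and 7 mice.

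Among the receptors of this family, those of TNF itself had the highest means. Tnfrsf1b and Tnfrsf1a, the receptors of TNF, were at 0.24 ± 0.18 and -0.19 ± 0.24, with Tnfrsf1b higher in 14 of 14 mice by 0.43, less than the median difference between assays of 1 gene. Tnfrsf1b exceeded Tnf by 3.51 ± 0.48 log2 units, or 11.4-fold. Ltbr was at -1.35 ± 0.76, Fas, the death receptor, at -3.48 ± 0.36, Cd40 at -4.00 ± 0.63 and Tnfrsf11b (osteoprotegerin, the decoy of RANKL) at -4.43 ± 0.49. The T cell costimulators Tnfrsf9, Tnfrsf4 and Tnfrsf18 (4-1BB, OX40 and GITR), were at -4.62 ± 0.63, -6.01 ± 0.68 and -6.93 ± 0.68, in that order in the tests.

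In the TGF-beta superfamily, Tgfb1 led the 27 ligands at 0.39 ± 0.38. It exceeded Tgfb2 by 4.80 ± 0.62 log2 units, or 27.8-fold, in 14 of 14 mice. Bmp1, a procollagen protease that carries the BMP name, was at -1.24 ± 0.24. Gdf3 and Inhbb were at -3.40 ± 0.58 and -3.52 ± 0.34 and were not separated, and Inhba, a chain of activin A, was at -4.15 ± 0.82. The bone morphogenetic proteins proper were low: Bmp3 at -5.73 ± 0.57, Bmp2 at -6.47 ± 0.41, Bmp6 at -7.58 ± 0.59, Bmp7 at -8.19 ± 1.35, Bmp4 at -8.58 ± 0.68 and Bmp5 at -9.14 ± 1.61. Of the neighbouring pairs of ligands, 8 of 20 were separated, where the share over all lists was 53.4%; the difference was not tested. Of the receptors, Tgfbr1 was at 0.22 ± 0.41, Acvrl1 (ALK1, of endothelium) at -1.04 ± 0.20 and Acvr1 at -2.15 ± 0.21, while Bmpr1b and Acvr2b were at -6.30 ± 0.68 and -6.81 ± 0.66. Another assay of Tgfbr1 was lower in 12 of 12 mice, at -1.21, so its place above Acvrl1 depends on the assay.

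Interferon receptors were abundant and interferons mostly sporadic. Ifnar2 was at 0.79 ± 0.22, Ifngr2 at -0.02 ± 0.31, Ifngr1 at -0.12 ± 0.25 and Ifnar1 at -0.76 ± 0.12. Of 9 interferons, 3 had a value in at least 7 mice, against 89.3% of all genes. Ifnk, interferon kappa of keratinocytes and myeloid cells, was at -4.85 ± 0.47 in all 14. Ifng was at -10.47 ± 1.41 by the assay used for ordering and at -8.40 ± 0.84 in 13 mice by the other assay of the gene. Ifne was at -10.91 ± 0.97 in 8 mice. Ifna2 and Ifna4 gave values in 3 mice, Ifna12 and Ifnb1 in 2, Ifna14 in 1 and Il28b in none. Ifngr1 exceeded Ifng by 10.47 ± 1.40 log2 units with the assay used for ordering.

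Genes downstream of these receptors were measured in at least 7 mice for all 12 members of the list, against 89.3% of all genes. Jak1, the kinase of many cytokine receptors, was at 0.46 ± 0.26, Stat6, which IL-4 signals through, at -0.47 ± 0.27 and Stat3, which IL-6 signals through, at -1.49 ± 0.42. Jak1 was above Stat6 in 14 of 14 mice. Irf7, an interferon-induced factor, ran from -3.06 to -0.81 between mice, while Irf3, which is made at rest, ran from -2.37 to -1.95. Stat4, of IL-12 signalling in lymphocytes, was lowest at -5.01 ± 0.51.

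All 23 pattern recognition genes were measured in at least 7 mice, against 89.3% of all genes. Mrc1, at 0.91 ± 0.55, and Clec7a (dectin-1), at 0.75 ± 0.48, led and were not separated. All 11 Toll-like receptors on the panel were among the 23. Tlr13, a sensor of bacterial ribosomal RNA, was at 0.32 ± 0.17 and Tlr4, the endotoxin receptor, at -0.14 ± 0.22, next to its coreceptor Cd14 at -0.06 ± 0.20, from which it was not separated. Tlr7 was at -1.17 ± 0.26, Tlr2 at -2.13 ± 0.28, Tlr3 at -3.02 ± 0.32, Tlr9 at -4.01 ± 0.49 and Tlr5 at -4.87 ± 0.43. Tlr4 exceeded Tlr2 by 2.02 ± 0.34 log2 units, or 4.06-fold, in 13 of 13 mice. Tlr11 and Tlr12 were lowest at -7.20 ± 0.24 and -11.67 ± 0.93.

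The cytoplasmic RNA sensors Ifih1 (MDA5) and Ddx58 (RIG-I), were at -1.35 ± 0.46 and -1.60 ± 0.49, and the cytoplasmic peptidoglycan sensors Nod1 at -3.33 ± 0.42 and Nod2 at -5.47 ± 0.53. The signalling genes behind these receptors lay in a narrow band. The 13 members ran from -0.40 ± 0.29 for Tollip to -3.26 ± 0.43 for Tirap, with Nfkb1 at -0.99 ± 0.35, Myd88, the common adaptor, at -1.29 ± 0.18, Rela at -1.85 ± 0.41 and Tnfaip3 (A20, an inhibitor) at -1.86 ± 0.28.

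Among the complement genes, C1q, C3 and the C1 inhibitor were high and the terminal components low. Of 21 components, 17 (81.0%) had a value in at least 7 mice, against 89.3% of all genes. Serping1, the C1 inhibitor, was at 1.47 ± 0.25, C1qa at 1.31 ± 0.80 and C3, the central component, at 1.23 ± 0.46, and none of these neighbours was separated. Without replicates 13 and 14, C1qa was at 1.52 ± 0.27 and Serping1 at 1.44 ± 0.25, so the order of these means depends on those mice. C1s was at -0.10 ± 0.21, Cfp (properdin) at -1.57 ± 0.47, Cfb at -1.74 ± 0.58 and C2 at -3.18 ± 0.37. Of the terminal components, Hc (complement C5) was at -3.41 ± 0.60, C6 at -6.68 ± 0.82 and C8g at -9.19 ± 0.95, C9 gave a value in 1 mouse, and C8a and C8b in none. C3 exceeded Hc by 4.62 ± 0.60 log2 units, or 24.6-fold, in 13 of 13 mice. Mbl2, a mannose-binding lectin of liver, gave a value in 1 mouse, and the lectin pathway proteases Masp1 and Masp2 were at -5.96 ± 0.46 and -7.09 ± 0.50. Among receptors and regulators, C3ar1 was above Itgam, a chain of complement receptor 3, in all 14 mice, and Cr1l (Crry) and Cd55 followed at -0.43 ± 0.27 and -3.38 ± 0.25.

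Of the genes of lipid mediators, Pla2g7, which inactivates platelet-activating factor, was highest at 1.36 ± 0.47, and Ptafr, the receptor of that factor, was at 1.09 ± 0.29. The leukotriene genes Lta4h, Alox5ap (FLAP) and Alox5 were at -0.51 ± 0.24, -0.78 ± 0.32 and -3.15 ± 0.43. Ltb4r1, a leukotriene B4 receptor, was at -5.46 ± 0.63. Ptges (prostaglandin E synthase) was at -2.53 ± 0.24 and Ptgs1 (COX-1) at -4.48 ± 0.44. Ptgs2 (COX-2), the inducible enzyme, had a median of -4.40; its mean was -3.93 with, and -4.69 ± 0.87 without, replicates 13 and 14. Ptgs1 minus Ptgs2 was -0.55 with and 0.25 without these mice, so no order is given. Alox15 was at -7.14 ± 1.08.

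Among adhesion and oxidase genes, Itgb2 and Cd44 were not separated (exact sign-flip test, adjusted p = 0.370, higher in 7 of 14 mice). Itgam exceeded Itgal (CD11a, more a lymphocyte integrin chain) by 3.35 ± 0.52 log2 units, or 10.2-fold, in 14 of 14 mice. Cybb, the catalytic chain of the phagocyte oxidase, was at 2.34 ± 0.27 in 13 mice, above Rac1 at 1.03 ± 0.26, Hmox1 (heme oxygenase-1) at 0.93 ± 0.55, Ncf1, a cytosolic oxidase chain, at -0.19 ± 0.30 and Sod1 at -0.23 ± 0.67. Nox4, an oxidase of fibroblasts, was at -2.47 ± 0.85. Nos2, the inducible nitric oxide synthase, was at -6.49 ± 1.04, from -8.12 through -6.84 to -4.15. Ncf1 exceeded Nos2 by 6.30 ± 1.05 log2 units, or 78.9-fold, in 14 of 14 mice.

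S100a8 was above S100a9 by 0.57 in 12 of 14 mice (exact sign-flip test, adjusted p = 0.00274) with the assay used for ordering. The other assay of S100a8 was at -1.68 ± 1.34 in 13 mice, lower than S100a9 at -1.20, so the order depends on the assay. Reg3g, an antibacterial lectin of epithelia, was at -2.17 ± 0.95, while its relative Reg3a was at -12.04 ± 0.51 in 9 mice. Pglyrp1, a peptidoglycan-binding granule protein, was at -5.97 ± 0.63 and not separated from Ltf. Chi3l3 (Chil3, or Ym1), often used as a gene of alternatively activated mouse macrophages, was at -7.56 ± 1.02.

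Among acute phase genes, Saa3, the serum amyloid A made outside the liver, was at -0.33 ± 1.29, from -2.60 through 0.28 to 1.18. Saa1, the liver isoform, was at -11.45 ± 1.28 in 9 mice, and Crp gave a value in 2 mice. Orm1, orosomucoid, was at -5.15 ± 0.57 and A2m at -7.75 ± 1.54. Of the coagulation genes, Procr (the endothelial protein C receptor), F2r (the thrombin receptor PAR1) and F3 (tissue factor) were at -0.95 ± 0.22, -1.13 ± 0.39 and -1.24 ± 0.68 and not separated. F2 (prothrombin) was at -11.29 ± 0.87 in 10 mice.

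Among growth factors, Grn (progranulin) stood apart at 3.28 ± 0.19 in 13 mice, above Igf1 by 3.75 in 13 of 13. Igf1 and Pdgfb, factors for fibroblasts and vessel cells, were at -0.47 ± 0.30 and -0.61 ± 0.25 and not separated. Vegfb, Vegfa, Vegfc and Figf (Vegfd) were at -2.93 ± 0.38, -3.13 ± 0.62, -3.66 ± 0.34 and -4.00 ± 0.48, and no neighbours among the genes from Vegfb to Figf were separated. Hgf was at -3.38 ± 0.72 and Fgf2 at -4.44 ± 0.37. The epidermal growth factor ligands Ereg and Areg were lowest at -6.67 ± 0.78 and -7.61 ± 2.26.

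Among kinases and receptors for small mediators, Lyn, a Src-family kinase of leukocytes, was at 0.16 ± 0.13, Jun and Fos, the chains of AP-1, were at -0.40 ± 0.35 and -0.47 ± 0.55 and not separated, and Akt1 was at -0.77 ± 0.22. Mapk14 (p38 alpha) had a median of -0.81; its mean was 0.21 with, and -0.80 ± 0.16 without, replicates 13 and 14. P2rx7, the ATP receptor of macrophages, was at -1.93 ± 0.49, above the bradykinin receptor gene Bdkrb1 at -5.15 ± 0.49 in 13 of 13 mice. Hrh1, a histamine receptor, was at -6.98 ± 0.61. The ion channel gene Trpv1 was at -12.68 ± 1.59 in 10 mice and Scn9a gave a value in 3, both genes of sensory neurons.

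The spread between mice differed widely between genes. Over the 376 assays measured in all mice the median SD was 0.456 log2 units, with quartiles of 0.284 and 0.721. It was below 0.5 for 216 assays and above 1 for 45. The smallest belonged to Il6st (0.08), Dnajc8 (0.10), Irf3 (0.12), Il1rn, Lyn, Erap1, Nup85 and Bcl10 (0.13 to 0.14). The largest, 3.86 for Mapk14, 3.70 for Clcf1, 3.40 for Ppbp and 3.02 for Ptgs2, each came with a single reaction over 4 cycles from the others in replicate 13 or 14. The next, Cfd and Adipoq with 2.96 and 2.73, spread over many mice. Cebpb, a transcription factor of myeloid cells and adipocytes, had an SD of 2.41 with 1 low reaction in replicate 14. Its median was -3.06, and its mean was -3.63 with, and -3.00 ± 1.05 without, replicates 13 and 14.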

How the data were processed

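Per the labels' protocols, RNA from frozen scaffolds was DNase-treated, reverse transcribed and amplified with the Mouse Inflammation Panel of TaqMan OpenArray assays (QuantStudio instrument); the labels give an RNA integrity number for the series as a range. The authors deposited, per the file headers, raw quantification cycles and normalized values that are linear ratios. The reference behind those ratios is not stated and was found from the values: the mean Cq of 5 assays was the only match among 39202 subsets of up to 8 of the 16 reference assays tried. The software that called cycles is not given in the sources used here.

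Levels are log2 of the deposited ratio. Missing reactions were left missing. The table of the authors' fold changes between conditions was not used. Of 648 assays, 618 matched 1 current gene by RefSeq accession, and 21 symbols were renamed; symbols are printed as deposited. A gene with several assays was taken at the assay with values in most mice, then at the higher mean. The genes named were all list and marker genes, the 20 highest, 10 lowest, 10 most and 10 least variable assays, every undetected assay and the 5 genes whose assays differed most; a few of these are not reported here. Lists, members and tests were chosen with earlier results of these data known; replicates 13 and 14, the stray reactions, the pairs of partner genes and the relations with Adipoq were singled out after the values were seen, and the partner pairs carry no test.

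Neighbours in a list, with at least 7 shared mice, were compared by an exact sign-flip test, adjusted by Benjamini-Hochberg over 324 pairs. Correlations used 100000 permutations. On simulated data the neighbour test called 2.42% of 124 pairs with no difference, 49.2% at 0.5, 78.0% at 1 and 97.3% at 2 log2 units. Each simulated pair was drawn on its own with a set difference. The real neighbours were ordered by the means of the same values that were tested. These rates therefore do not give the error rate among the pairs that passed. Amplicon length, in the deposited tables, had a Spearman correlation of 0.041 with level over assays. No pair of mice shared most of its values. The number of mice limits the precision, and p-values measure the spread between mice of these panels (6 panels hold the 14 samples). Python 3 with numpy, pandas and scipy was used.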

Additional observations from a re-analysis of the deposited data

Results flagged for a closer look

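In the 8 day 14 mice, 48 of 366 genes (13.1%) had 1 mouse whose gap to the nearest other mouse was large against the range of the group (Dixon's 95% limit). Chance alone gives this for about 1 in 20. Of these, 29 were in replicates 13 and 14, the mice with the most missing reactions. Replicates 7 to 12 held 6, 4, 4, 3, 1 and 1 of the rest. Together these are near the share that chance alone gives. Values below are log2 levels of the mouse that stood out, and no cause was tested. Replicate 7 was the highest of its group for C1qc (2.70), Il1f10 (-10.21), Irak1 (0.72) and Ltbr (0.89). Replicate 7 was the lowest of its group for Cd14 (-0.58) and Cxcl3 (-5.19). Replicate 8 was the highest of its group for B2m (11.83), Bmp15 (-8.0) and Serpina1a (-7.31). Replicate 8 was the lowest of its group for Masp1 (-7.14). Replicate 9 was the highest of its group for Ccr8 (-7.32), F2rl1 (-3.30) and Itgam (0.94). Replicate 9 was the lowest of its group for Ghrl (-11.91). Replicate 10 was the highest of its group for Hgf (-1.21). Replicate 10 was the lowest of its group for Ifngr1 (-0.79) and Tollip (-1.27). Replicate 11 was the lowest of its group for Osm (-5.17). Replicate 12 was the highest of its group for Ccl6 (2.51). Replicate 13 was the highest of its group for Alox5 (-1.85), Clcf1 (7.35), Il13ra1 (0.73), Il1rap (-1.07), Jak1 (1.31), Kit (3.01), Lefty1 (-4.73), Nod1 (-2.26), Nox4 (0.24), Pla2g2e (-2.42), Ppbp (8.00), Ptn (2.87) and Tslp (3.22). Replicate 13 was the lowest of its group for Acvr1 (-2.69), C1qa (-1.34), C3ar1 (0.80), Il16 (-5.24), Il23r (-13.36), Il7r (-1.16), P2rx7 (-3.45) and Vegfb (-3.81). Replicate 14 was the highest of its group for Ccr2 (0.92), Cxcl10 (2.12), Ly75 (-1.33), Mapk14 (13.61), Ptgs2 (6.18), Tirap (-1.92) and Tnfrsf14 (-0.65). Replicate 14 was the lowest of its group for Tnfrsf1a (-0.85).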

How the results depend on the processing

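The number of mice, and cycles above about 28 where reactions go missing, limit these results. Taking reactions above cycle 30 as missing left 33 assays without any value, against 13. With missing reactions set to the largest cycle, 110 of 370 neighbouring pairs in the new order passed; of the 173 pairs that differed, 126 still passed in the same direction and 23 took the opposite order. With the means of 6 panels as values 0 of 339 pairs passed, because the smallest exact p with 6 panels is 0.0312; 138 pairs reached it, the smallest adjusted p was 0.0743, and 133 of the 173 pairs had one sign in every panel. The median SD over assays was 0.306 with panel means, 0.356 with the median absolute deviation and 0.364 without replicates 13 and 14, against 0.456. Leaving out each mouse in turn gave 376 to 465 assays with a value in all mice, 13 to 16 with none, 159 to 177 separated pairs, a median SD of 0.414 to 0.460, a median difference between assays of a gene of 0.496 to 0.567 and a median level of -3.15 to -3.05; no separated pair changed sign when a mouse was left out. With the mean of all assays of a gene, 172 pairs passed; of the 173, 168 still passed in the same direction and 2 took the opposite order (Alox5 and Pla2g2e, Ppia and Gapdh). Without replicates 13 and 14, 172 pairs were separated, and 178 with stray reactions taken as missing; both alternatives were chosen after the data were seen. Some differences between the first and second gene of a list changed sign. With missing reactions at the largest cycle, Ccl6 minus Ccl8 was -0.99, B2m minus Actb -1.42, Cybb minus Rac1 -0.36 and Il10rb minus Il7r -0.77, since each first gene lacks a value in 1 mouse. With panel means, Mrc1 minus Clec7a was -0.0503 and Serping1 minus C1qa 0.20. With medians, B2m minus Actb was -0.05 and Itgb2 minus Cd44 -0.0125, and the latter was -0.0035 without replicates 13 and 14. No paired analysis was possible because no groups of mice were compared, so replicate numbers pair nothing; the tests of neighbouring genes pair values within a mouse.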
